A study of Mus musculus with 12 samples.

Results

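The proteasome is the main protease of the cytoplasm and nucleus and degrades proteins marked with ubiquitin. Its 20S core is a stack of 2 outer alpha rings and 2 inner beta rings, and the peptide bonds are cut inside the beta rings. The 19S cap recognises the ubiquitin chain, removes it, and unfolds and feeds the substrate into the core with a ring of ATPases. In oocytes the proteasome is known for the destruction of cyclin B and securin during meiosis and for the clearance of maternal proteins after fertilization.

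The genes described here are the rows of the count table whose symbol begins with Psm, a letter from a to g and a digit. There were 50 such genes among the 24562 of the table: 14 of the 20S core, 17 of the 19S cap, 7 assembly chaperones, 6 activators and inhibitors, 5 special 20S subunits (immunoproteasome, thymoproteasome and testis forms) and Psmc3ip. Psmc3ip shares the symbol pattern but encodes a meiotic recombination factor and not a part of the proteasome. Symbols chose the members, and no expression value did.

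RNA-Seq was performed on 12 pools of 18 to 45 oocytes from CD-1 mice, with 3 pools in each of 4 cohorts. The cohorts were postnatal day (PND) 13, PND 40, and the PND 16 small and PND 16 large mice. The mice were unstimulated and untreated, and those of PND 16 were divided by body weight. All oocytes came from antral follicles, had an intact germinal vesicle, and were stripped of cumulus cells by pipetting in medium with milrinone, an inhibitor that holds meiotic arrest. PND 13 and PND 16 small oocytes form the meiotically non-competent group and PND 16 large and PND 40 oocytes the competent group, with 6 pools in each. Each cohort drew on few mice, and 1 pool mixes oocytes, so the spread between pools is the only error that could be measured, and part of it may be technical.

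Pools held between 17671193 and 27418358 counts. The 3 PND 16 small pools (17671193 to 21362541) all lay below the 3 PND 16 large pools (25336557 to 25695245). The 12 oocyte markers were all expressed, with a sum of 18071 to 25255 CPM per pool. CPM gives a gene's count in a library brought to 1000000 counts, after edgeR's TMM scaling between pools. The 12 granulosa and cumulus markers were also all detected, and their mean log2(CPM + 1) was 4.95, 5.05 and 5.12 in PND 13 replicates 1 and 3 and PND 16 small replicate 2, against 2.56 to 3.76 in the other 9 pools. Their summed level was 400 to 772 CPM at PND 13, 444 to 768 in PND 16 small, 489 to 538 in PND 16 large and 399 to 454 at PND 40. A large part of these sums was Serpine2 (199 to 331 CPM) and Nr5a2 (87.8 to 146 CPM). Summed markers of theca and stroma reached 38.9 CPM and those of immune cells 6.82 CPM. Some counted RNA therefore carries markers of somatic cells, and its part in the results was not tested beyond the fits named below.

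Oocytes of every cohort expressed all subunits of the 20S core and 19S cap that the symbol rule covers. These 31 genes passed the count filter that left 13943 genes for testing, as did the 7 assembly chaperones and 45 of the 50 genes in all. Psmc3ip is among the 45, and the numbers of proteasome genes tested below include it. The cap subunits Sem1 and Adrm1 have other symbols, so they are left out of the cap counts and sums and are treated with the further genes below. To compare genes with each other, CPM was divided by the length of the gene's merged exons in kilobases (kb). On this per-length scale the median level over the 14 core genes was 22.0 CPM per kb, and that over the 17 cap genes was 23.3 CPM per kb. The highest level in the core was that of Psma6, an alpha subunit, at 43.7 CPM per kb, and the highest in the cap was that of the ATPase subunit Psmc5 at 47.4 CPM per kb. At the low end stood Psma3 (0.643 CPM per kb), Psmb3 (2.13 CPM per kb) and Psmd13 (2.91 CPM per kb), and merged exons also include exons of transcripts that these oocytes may not use.

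A pair of activators stood above every core and cap subunit counted here in level per length. Psme3, which forms the nuclear activator PA28 gamma, had 103 CPM per kb, and Psme4, which encodes the activator PA200, had 68.9 CPM per kb. The other PA28 subunits, Psme1 and Psme2, which interferon induces in many cells, had 0.341 and 0.420 CPM per kb. Psmf1, the inhibitor PI31, had 26.9 CPM per kb, within the range of the core subunits.

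**Figure D1:**
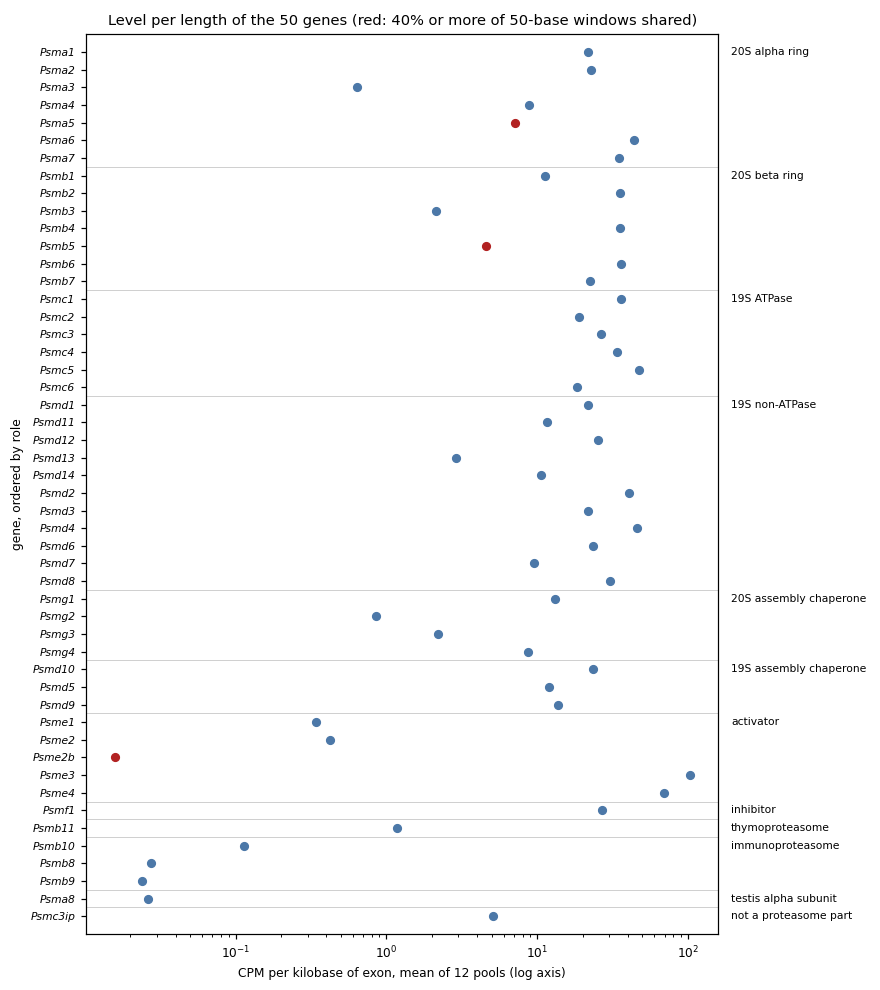
Level per length of the 50 genes, in CPM per kilobase of merged exon on a log axis, as the mean of 12 pools, grouped by role. All but 4 of the 31 core and cap genes lie between 7.11 and 47.4 CPM per kb, whereas the immunoproteasome and testis forms are at most 0.114 CPM per kb; red points mark genes with 40% or more of their 50-base windows in transcripts of another gene.

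Some of these levels are uncertain because their transcripts share sequence with those of other genes. Reads were 50 bases long, and 54.1% of the 50-base windows of Psmb5 transcripts also occur in transcripts of other genes, mainly in the pseudogene Gm3375. For Psma5 the share was 49.96%, for Psmb3 17.8% and for Psma3 15.4%. For Psmd9 it was 24.9%, nearly all with Gm26745, a lincRNA gene that overlaps exons of Psmd9 itself on the opposite strand (25.5% of its exon bases). Psmb5 encodes the chymotrypsin-like catalytic subunit (chromosome 14, 54614119 to 54618022, minus strand, GRCm38). The following stretches from GENCODE M21 show the copy at coding bases 307 to 356 of Psmb5, where a read cannot be told apart, and at coding bases 263 to 312, where capitals mark the bases that differ.
Psmb5 307 to 356: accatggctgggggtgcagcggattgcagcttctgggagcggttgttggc
Gm3375, same place: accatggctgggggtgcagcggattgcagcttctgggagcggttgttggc
Psmb5 263 to 312: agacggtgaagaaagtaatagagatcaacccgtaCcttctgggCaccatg
Gm3375, same place: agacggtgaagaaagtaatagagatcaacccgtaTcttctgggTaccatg
The level of Psmb5 was 4.58 CPM per kb of exon and 9.99 CPM per kb of windows that no other gene holds, the latter on the assumption that no read from a shared window was counted. Neither value reached the 22.3 CPM per kb of Psmb7 or the 36.2 CPM per kb of Psmb6, the other catalytic subunits.

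Summed over its 14 genes, the 20S core had 591, 633 and 604 CPM in the PND 13 pools and 605, 591 and 508 CPM in the PND 16 small pools. The sum was 739, 757 and 714 CPM in the PND 16 large pools and 743, 732 and 676 CPM in the PND 40 pools. Every competent pool was higher than every non-competent pool. For the 17 genes of the 19S cap the sum was 1223, 1336 and 1201 CPM at PND 13, 1289, 1375 and 1242 CPM in PND 16 small, 1485, 1455 and 1432 CPM in PND 16 large, and 1442, 1407 and 1385 CPM at PND 40. With TMM scaling the lowest competent pool (1385 CPM) was just above the highest non-competent pool (1375 CPM). For the cap this order depended on the scaling, since the groups overlapped with RLE factors (PND 16 small replicate 2 at 1386 CPM, PND 40 replicate 3 at 1376 CPM) and with total counts only (PND 13 replicate 2 at 1381 CPM, PND 40 replicate 3 at 1376 CPM). These sums have no test, and a higher share of counts cannot be told apart from more RNA per oocyte or from less of other RNAs.

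The ratio of the core sum to the cap sum was 0.483, 0.474 and 0.503 at PND 13, and 0.469, 0.430 and 0.409 in PND 16 small. It was 0.498, 0.520 and 0.499 in PND 16 large and 0.515, 0.520 and 0.488 at PND 40. All PND 16 small pools were below all pools of the other cohorts. The lowest ratio belonged to PND 16 small replicate 3, the pool with the fewest counts.

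**Figure D2:**
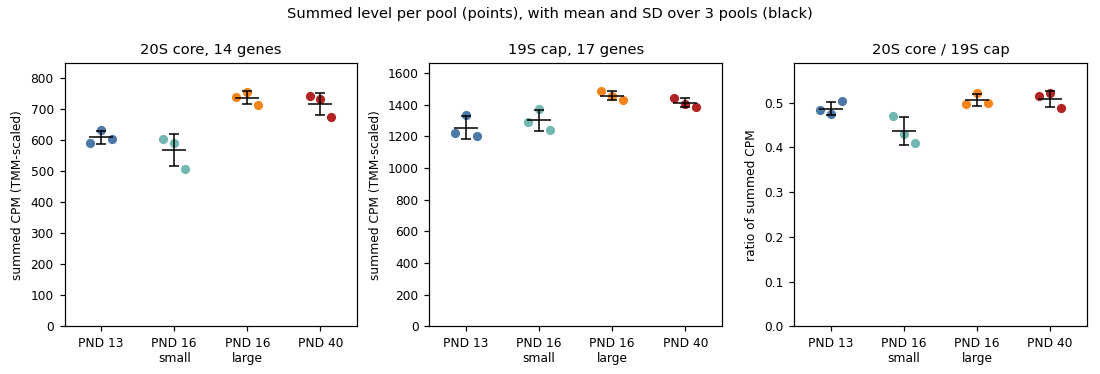
Summed CPM (TMM-scaled) of the 14 genes of the 20S core and of the 17 genes of the 19S cap, and their ratio, in each of the 12 pools, with mean and SD over 3 pools in black. Core sums are 508 to 633 CPM in the non-competent pools and 676 to 757 CPM in the competent pools.

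Competent oocytes were compared with non-competent oocytes, where competence means resuming meiosis and reaching metaphase II in culture. The paper assigned the groups by age and body weight, and no maturation score is given for the sequenced pools. For the division by weight the paper did not show the maturation data, because of few animals. In this comparison 18 proteasome genes were higher and 2 were lower at an adjusted p of at most 0.05. The changes upward were small, from 13.6% to 38.1%, so that no gene passed the 1.5-fold criterion upward. The 2 lower genes, Psmd13 of the 19S cap and Psmg2, a 20S assembly chaperone, passed both criteria. Of all genes tested, 14.2% were higher and 16.5% lower at that adjusted p, against 40.0% and 4.44% of the 45 proteasome genes tested. Without Psmc3ip the shares were 40.9% and 4.55% of 44 genes. With the 1.5-fold criterion the shares of all genes were 3.78% higher and 11.2% lower. The median log2 fold change over the 45 genes was 0.20, and that over all genes tested was -0.0046.

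By role, 6 of the 14 core genes rose and none fell, and 8 of the 17 cap genes rose and 1 fell. The risers of the core were Psma2, Psma6 and Psma7 of the alpha ring and Psmb1, Psmb4 and Psmb7 of the beta ring. Those of the cap were the ATPases Psmc1, Psmc2, Psmc4 and Psmc5, and Psmd3, Psmd4, Psmd8 and Psmd12 among the non-ATPase subunits. Psmd4 is a ubiquitin receptor of the cap. The rise of Psmd12 was lost in 11 of 12 fits without 1 pool and in 6 of 9 fits with another setting (adjusted p of up to 0.225), that of Psmc1 in 5 of 12 and that of Psma6 in 4 of 12 fits without 1 pool. Of the 7 assembly chaperones, Psmd9 and Psmd10, which both help to build the ATPase ring, rose, and Psmg2 fell. Psme3 and Psmf1 rose among the activators and inhibitors.

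The gene with the largest change in the core was Psmb1, a beta-ring subunit without proteolytic activity. Psmb1 had 42.5, 46.3 and 43.7 CPM at PND 13 and 43.7, 41.2 and 43.3 CPM in PND 16 small. It had 63.2, 65.4 and 63.4 CPM in PND 16 large and 57.5, 56.8 and 54.0 CPM at PND 40. The groups did not overlap, and the log2 fold change between competent and non-competent oocytes was 0.47 ± 0.069 (SE; adjusted p = 0.000267, 6 pools a group).

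Psmb7, the trypsin-like catalytic subunit, had 68.6, 59.4 and 56.1 CPM at PND 13, 64.3, 69.9 and 69.6 CPM in PND 16 small, 97.3, 90.6 and 83.8 CPM in PND 16 large and 91.6, 79.4 and 85.1 CPM at PND 40. All competent pools were above all non-competent pools, with a log2 fold change of 0.44 ± 0.075 (SE; adjusted p = 0.000663). Exons of Psmb7 overlap those of Nek6 on the opposite strand over 11.8% of their length, and Nek6 itself had at most 4.25 CPM. Psmc5, the cap ATPase highest per length, had 59.2, 55.5 and 57.5 CPM at PND 13, 57.9, 61.3 and 52.3 CPM in PND 16 small, 73.7, 70.3 and 74.5 CPM in PND 16 large and 79.4, 75.6 and 75.0 CPM at PND 40. Its log2 fold change was 0.38 ± 0.061 (SE; adjusted p = 0.000444), again without overlap.

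Psmd13, a subunit of the lid of the 19S cap, ran opposite to the other subunits of the cap. It had 14.04, 14.4 and 16.7 CPM at PND 13, 13.4, 10.5 and 9.72 CPM in PND 16 small, 5.77, 9.03 and 8.12 CPM in PND 16 large, and 5.06, 6.53 and 4.52 CPM at PND 40. The lowest non-competent pool was above the highest competent pool. Psmd13 fell by 1.01 ± 0.19 (SE) on the log2 scale between non-competent and competent oocytes (adjusted p = 0.00134). The gene lies on chromosome 7 (140881968 to 140898643, plus strand, GRCm38) and overlaps exons of Sirt3, on the opposite strand, over 10.1% of its exon length. Sirt3 had 0.889 to 3.78 CPM in the 12 pools, with a log2 fold change of 0.23 in competent vs. non-competent oocytes (adjusted p = 0.615). The other 16 genes of the cap had log2 fold changes of 0.031 to 0.38.

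Psmg2 rested on few reads, 10 to 62 per pool. It had 1.48, 1.99 and 2.54 CPM at PND 13, 2.91, 1.42 and 1.48 CPM in PND 16 small, 0.941, 0.986 and 1.67 CPM in PND 16 large and 0.429, 1.03 and 0.918 CPM at PND 40. The groups overlapped, and the log2 fold change was -0.98 ± 0.33 (SE; adjusted p = 0.0366). Its call was lost when any 1 of 8 pools was left out, with adjusted p of up to 0.0833.

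**Figure D3:**
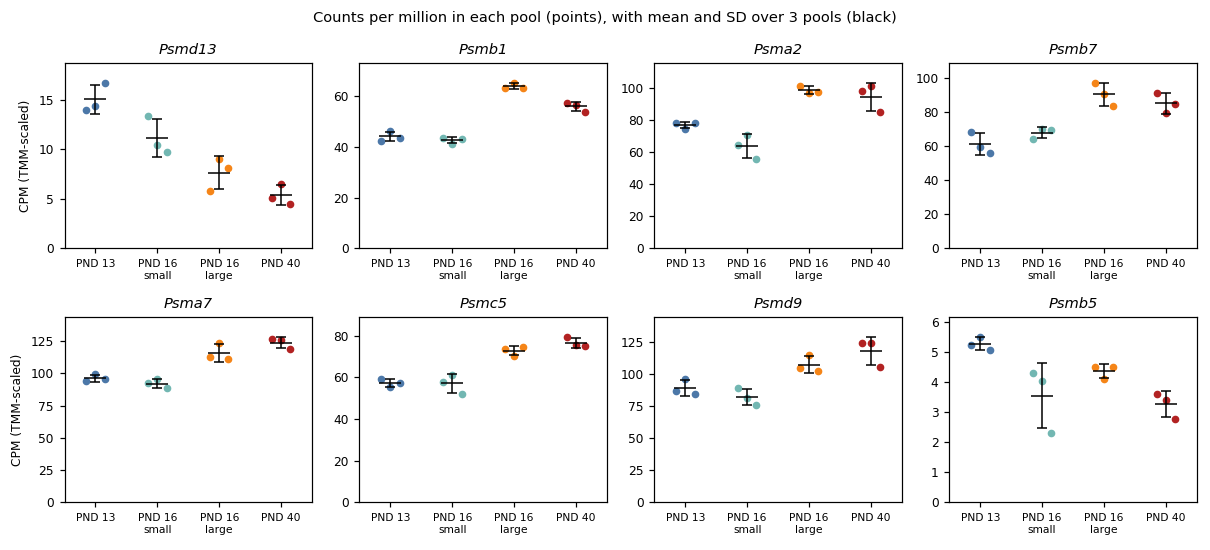
CPM (TMM-scaled) of 8 proteasome genes in each of the 12 pools, with mean and SD over 3 pools in black. Psmd13 lies at 14.04 to 16.7 CPM at PND 13 and at 4.52 to 6.53 CPM at PND 40, whereas Psmb1, Psma2, Psmb7, Psma7, Psmc5 and Psmd9 are higher in every competent pool than in every non-competent pool, and Psmb5 overlaps between the groups.

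In all, 12 proteasome genes had every competent pool above every non-competent pool and 1, Psmd13, had the reverse. Among all genes tested, 6.89% were separated upward and 7.81% downward in this way. Without the 3 pools that held most granulosa marker RNA, 9 proteasome genes rose and 1 fell at the adjusted p: Psma2, Psma7, Psmb1, Psmb7, Psmc5, Psmd3, Psmd4, Psmd9 and Psme3 rose, and Psmd13 fell. With the granulosa marker level as a covariate the numbers were 17 and 2. The share of all genes passing in these fits was not computed, so these counts have no background beside them.

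Promoter sequences of RefSeq (GRCm38.p6, from 250 bases before the transcription start to 50 after it) were at hand for 42 of the 50 genes. The ETS core motif CCGGAAG, counted on both strands, was in 15 of the 42 (35.7%) and in 9.93% of all 27025 genes with a promoter. Psmc3ip is among the 42 and among the 15. Of the 18 genes that rose, 15 had a promoter, and 6 of these held the motif. The stretches below are shown because they are the upstream matches of those 6 genes and the match of Psmd13, which held the same motif and fell. Capitals mark the motif, which reads CTTCCGG where it lies on the other strand, and each stretch is given 5′ to 3′ on the strand of its gene.
Psma6, chr12:55398681-55398710, plus strand: cagagccaccacCCGGAAGcccgcggaccg
Psmc1, chr12:100110162-100110191, plus strand: ttggtggatgcaCTTCCGGcggtggcgatt
Psmc2, first start, chr5:21785179-21785208, plus strand: gaccagtgagcaCTTCCGGgatggggctcg
Psmc2, second start, chr5:21786711-21786740, plus strand: ggcgcggagctaCTTCCGGtggggaagaga
Psmd4, chr3:95042722-95042751, minus strand: cttacagctgttCCGGAAGctgctgcgaag
Psmd12, chr11:107479498-107479527, plus strand: gatgagcgggcgaCTTCCGGtgcgagtgac
Psme3, chr11:101316094-101316123, plus strand: agggcacaaggcCCGGAAGctccgacagcc
Psmd13, chr7:140882365-140882394, plus strand: gcatgccccgcgcgcccgcggtgCCGGAAG
The match of Psma6 lies before a start inside the gene, and the promoter at the first start of Psma6 held no match. The match of Psmd13 ends on the first transcribed base of the RefSeq start, which lies inside the span of the gene in GENCODE. The matches of Psmc1 and Psmd12 and that at the second start of Psmc2 also lie inside the GENCODE spans of their genes. A match is a run of letters and no measured binding site, and the motif was held by genes that rose, by genes that did not pass the test and by the gene that fell.

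The antioxidant response element TGACNNNGC, the core that the transcription factors Nfe2l1 and Nfe2l2 bind, was in 6 of the 42 promoters (14.3%) and in 13.99% of all promoters. The 5 matches that lie wholly upstream of a RefSeq start are shown because Nfe2l1 is the known activator of proteasome genes when proteolysis is blocked. The match of Psmd9 lies inside the span of the gene in GENCODE.
Psmb5, chr14:54618024-54618053, minus strand: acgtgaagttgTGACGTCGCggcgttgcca
Psmb6, chr11:70525327-70525356, plus strand: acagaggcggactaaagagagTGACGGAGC
Psmc6, chr14:45329586-45329615, plus strand: gccagccagtaGCTAAGTCAggcattgctc
Psmd9, chr5:123228148-123228177, plus strand: tatctagccggTGACCCCGCccacttccaa
Psmd12, chr11:107479278-107479307, plus strand: tctGCTGTGTCAcatttgcccccctcagac
Among these 5 genes Psmd9 and, less stably as given above, Psmd12 rose in competent oocytes, and Psmb5, Psmb6 and Psmc6 did not pass the test. The GC box GGGCGG was in 23 of the 42 promoters (54.8%) against 38.2% of all promoters, the variant TGAGNNNGC in 13 (31.0%) against 19.8%, the CCAAT box in 15 (35.7%) against 41.1%, and the E-box CACGTG in 4 (9.52%) against 8.09%. The element TAATTG of the oocyte factor Nobox and the full cAMP response element TGACGTCA were in none of the 42, against 9.22% and 2.03% of all promoters. All motifs were searched on both strands, and TGACNNNGC can overlap TGACGTCA.

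PND 16 large and PND 16 small oocytes have the same age and differ in the body weight of the mice. Here 8 proteasome genes rose and none fell at the adjusted p, against 4.98% of all genes higher and 7.32% lower, and the risers changed by 25.6% to 54.8%. Psma2, an alpha-ring subunit, also passed the 1.5-fold criterion, which 1.43% of all genes passed upward and 4.76% downward. The median log2 fold change was 0.21 over the 45 proteasome genes and -0.018 over all genes tested. By role, the risers were 5 core genes (Psma2, Psma7, Psmb1, Psmb4 and Psmb7), the cap ATPases Psmc2 and Psmc5, and the chaperone Psmd9.

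Psma2 had 64.6, 70.9 and 55.7 CPM in PND 16 small and 102, 96.9 and 97.5 CPM in PND 16 large, with no overlap. The log2 fold change was 0.63 ± 0.096 (SE; adjusted p = 0.00249). Psmb1 followed with 0.58 ± 0.081 (SE; adjusted p = 0.00191), just under 1.5-fold. Psmd13 had the largest change of the cap, at -0.55 ± 0.21 (SE), and its pools were apart, but it did not pass the test (adjusted p = 0.103).

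Separated pools were more frequent than calls: 19 proteasome genes had every PND 16 large pool above every PND 16 small pool, and 2 had the reverse. Of all genes tested, 16.2% were separated upward and 15.2% downward. The count of 8 genes moved with single pools. It was 3 without PND 16 large replicate 1, 4 without PND 16 large replicate 2 and 5 without PND 16 small replicate 3, and no more than 12 without any other pool. The shares of all genes passing in these fits were not computed. Psma2 itself lost the 1.5-fold criterion without PND 16 small replicate 3 (log2 fold change 0.54) but kept its adjusted p. The lower depth of the PND 16 small pools moved with the groups, and its part was not tested. With scaling by total counts alone the number was again 8. Every fit already allows for the library total, so that fit cannot show an effect of depth.

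The extremes of age, PND 40 and PND 13, were compared next. At PND 40, 15 proteasome genes were higher and 2 lower at the adjusted p, against 16.3% of all genes higher and 16.7% lower. The risers changed by 15.8% to 39.1% and none passed 1.5-fold, which 6.31% of all genes passed upward and 12.6% downward. The 15 genes are 33.3% of the 45 tested. They were Psma2, Psma7, Psmb1 and Psmb7 of the core, Psmc1, Psmc4, Psmc5, Psmd3, Psmd4 and Psmd12 of the cap, the chaperones Psmd9 and Psmd10, and Psme3, Psme4 and Psmf1. The lower genes were again Psmd13 and Psmg2, and the PND 13 and PND 40 pools are also part of the comparison by competence, so the 2 comparisons are not independent.

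Psmd13 fell by 1.49 ± 0.21 (SE) on the log2 scale from PND 13 (15.1 ± 1.46 CPM, SD, n = 3) to PND 40 (5.37 ± 1.04 CPM, SD, n = 3), with an adjusted p of 0.000245. Psmg2 fell by 1.33 ± 0.47 (SE; adjusted p = 0.0456), a call that was lost without any 1 of the 6 pools compared. Psmb5 had the largest change of the core, with 5.25, 5.51 and 5.07 CPM at PND 13 and 3.60, 3.42 and 2.79 CPM at PND 40. Its pools did not overlap, but the log2 fold change of -0.69 ± 0.26 (SE) missed the threshold (adjusted p = 0.0536). It was called lower at PND 40 with DESeq2, with RLE factors, with total counts only, with limma and in a fit of only the 6 pools compared, so its call depended on the setting. Psme4 had 538, 545 and 494 CPM at PND 13 and 616, 607 and 603 CPM at PND 40, a log2 fold change of 0.21 ± 0.074 (SE; adjusted p = 0.0422) that was lost without any 1 of the 6 pools. Psmf1 had 143, 180 and 134 CPM at PND 13 and 193, 196 and 194 CPM at PND 40, a rise of 0.35 ± 0.094 (SE; adjusted p = 0.0111) on the log2 scale.

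Pools of 21 proteasome genes were separated upward at PND 40 and those of 6 downward, against 26.3% and 24.5% of all genes tested. The total of 17 genes at the adjusted p was 10 without PND 13 replicate 1, 7 without PND 13 replicate 3, 9 without PND 40 replicate 1, 9 without PND 40 replicate 2 and 11 without PND 40 replicate 3. The shares of all genes passing without these pools were not computed. Psma7, Psmb1, Psmb7, Psmc5, Psmd9 and Psme3 rose and Psmd13 fell in every fit without 1 of the 6 pools. The rises of Psmc1, Psmd3 and Psme4 were lost in 6 of 6 such fits, and those of Psma2, Psmd4 and Psmd12 in 5 of 6.

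**Figure D4:**
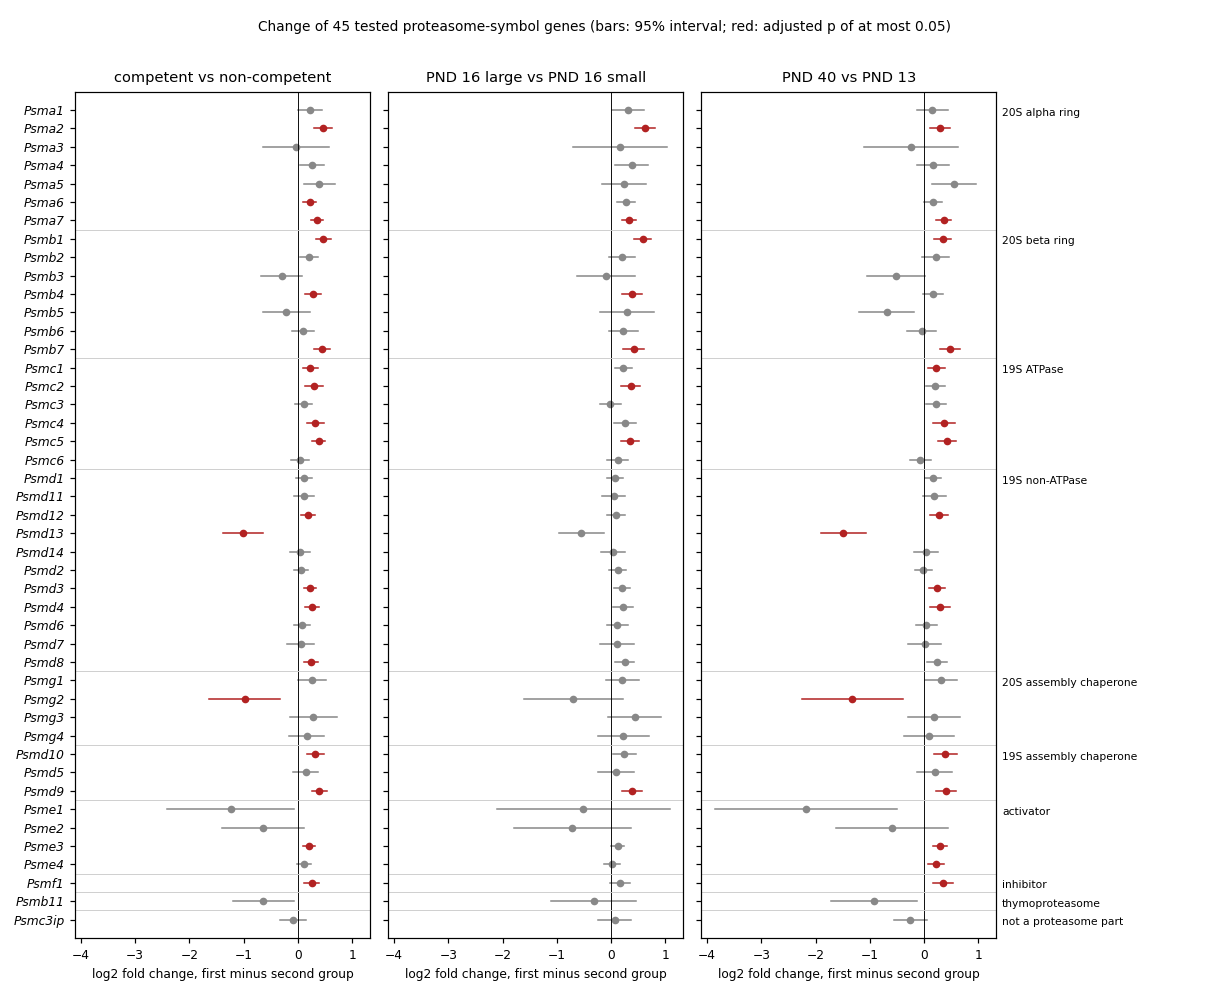
Log2 fold change (first minus second group) of the 45 tested genes in 3 comparisons, with 95% intervals, ordered by role and coloured red at an adjusted p of at most 0.05. Most subunits of the 20S core and 19S cap lie right of 0 in each panel, whereas Psmd13 lies left of 0 in all 3 and passes the test for competence (-1.01) and for PND 40 vs. PND 13 (-1.49).

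The remaining comparisons, within the competent and within the non-competent group, gave no called gene by edgeR. For PND 40 vs. PND 16 large, 6.83% of all genes passed the adjusted p and 3.66% also the fold criterion, but none of the 45 proteasome genes. At an unadjusted p under 0.05 there were 5 of the 45, against 3123 of all 13943 genes tested. By DESeq2, 1 gene passed the adjusted p (Psmc2, lower at PND 40), and by limma 0 did. In a fit of only these 6 pools 5 passed the adjusted p but none the fold criterion, with Psmg1 higher and Psmb1, Psmc2, Psmc6 and Psmd2 lower at PND 40. The shares of all genes passing by DESeq2, by limma and in the fit of 6 pools were not computed. The largest changes of the core and cap were those of Psmb5 (log2 fold change -0.42 ± 0.26, SE, adjusted p = 0.375) and Psmd13 (-0.51 ± 0.21, SE, adjusted p = 0.172).

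For PND 16 small vs. PND 13, 0.925% of all genes passed the adjusted p and 0.373% also the fold criterion, and again none of the proteasome genes did. At an unadjusted p under 0.05 there were 5 of the 45, against 2684 of all 13943 genes tested. By DESeq2 and limma 0 passed the adjusted p. The largest changes of the core and cap were those of Psmb5 (-0.57 ± 0.26, SE, adjusted p = 0.25) and Psmd13 (-0.43 ± 0.21, SE, adjusted p = 0.283). Without PND 16 small replicate 1, 3 genes passed the adjusted p: Psmg3 and Psmd7, lower in PND 16 small, and Psmd11, higher. The share of all genes passing without that pool was not computed. The medians of the 45 genes were -0.019 for PND 40 vs. PND 16 large and -0.048 for PND 16 small vs. PND 13.

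Of the 5 special 20S subunits, 4 were near or below detection. Psmb8, Psmb9 and Psmb10, the catalytic subunits that replace the standard ones in the immunoproteasome, had at most 7, 6 and 11 counts in any pool. Psmb9 had no count in any PND 40 pool, and a count of 0 allows up to 3. Psma8, the alpha subunit of the spermatoproteasome of the testis, had at most 5 counts in any pool. These genes and Psme2b (at most 2 counts) were not tested.

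Psmb11, the beta subunit of the thymoproteasome of the thymic cortex, was the exception, with 34 to 204 counts in every pool. Of its 50-base windows 2.62% also occur in transcripts of other genes, 594 in all. Where on its exons the counts fell was not examined. Psmb11 had 8.26, 7.97 and 7.69 CPM at PND 13 and 9.57, 5.73 and 2.02 CPM in PND 16 small. It had 4.38, 4.50 and 5.01 CPM in PND 16 large and 3.99, 5.61 and 3.01 CPM at PND 40. The groups overlapped through PND 16 small replicate 3. The log2 fold change in competent vs. non-competent oocytes was -0.64 ± 0.29 (SE; adjusted p = 0.105), and it passed the threshold without PND 16 small replicate 3 (-0.84, adjusted p = 0.00424).

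Psme1 was high in the pools with the highest mean level of the granulosa markers, though not every marker followed. Serpine2 had 199, 227 and 237 CPM in PND 13 replicates 1 and 3 and PND 16 small replicate 2, and up to 331 CPM elsewhere. Kitl was highest in PND 16 small replicate 3 (53.6 CPM) and Cyp19a1 in PND 16 large replicate 3 (24.3 CPM). Psme1 had 1.19, 2.25 and 1.85 CPM in PND 13 replicates 1 and 3 and PND 16 small replicate 2, and 0.199 to 0.789 CPM in the other 9 pools. By edgeR none of its fold changes passed the test (adjusted p = 0.128 for competence and 0.0652 for PND 40 vs. PND 13), while DESeq2 called it lower at PND 40 than at PND 13. The part of granulosa RNA in its level was not tested. Psmc3ip, the recombination factor, had 7.48 to 10.5 CPM over the 12 pools and a log2 fold change of -0.091 ± 0.12 (SE; adjusted p = 0.594) in competent vs. non-competent oocytes. For competence Psmb5 had -0.21 ± 0.22 (SE; adjusted p = 0.491) and Psme4 0.11 ± 0.063 (SE; adjusted p = 0.191).

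**Figure D5:**
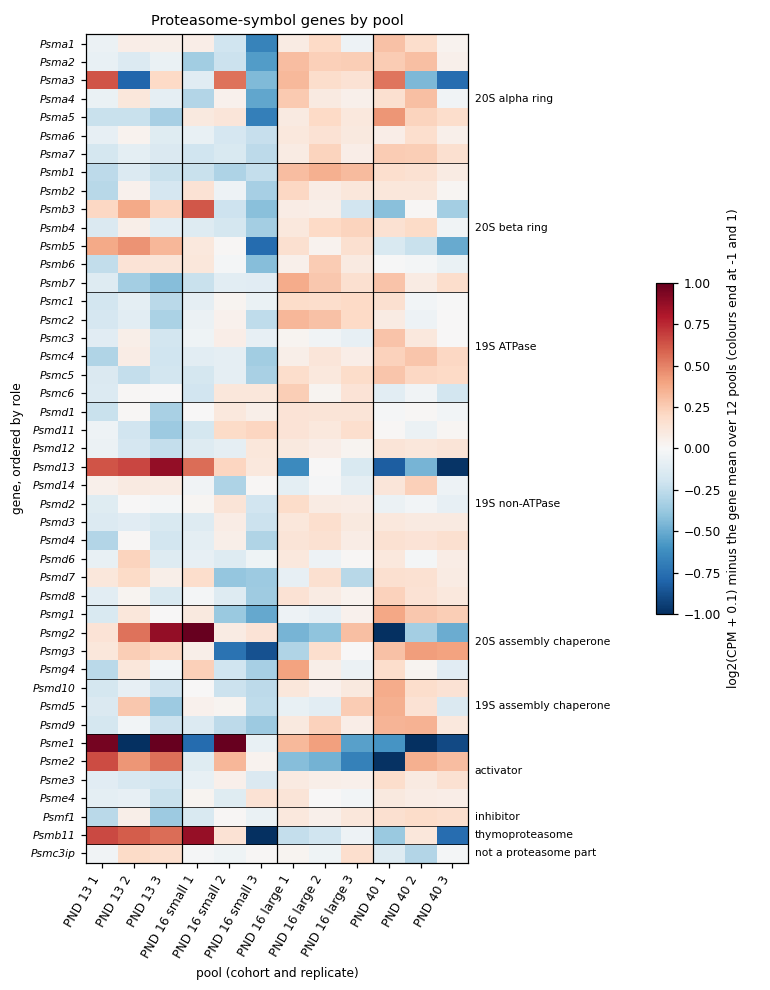
Level of the 45 tested genes in each of the 12 pools as log2(CPM + 0.1) minus the gene's mean, ordered by role, with colours ending at -1 and 1. Most core and cap genes turn from blue to red between the 6 non-competent and the 6 competent pools, Psmd13 runs the other way, and Psme1 is high in PND 13 replicates 1 and 3 and PND 16 small replicate 2.

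A list of 20 further genes of the pathway was tested in the same fits. It holds the cap subunits Sem1 and Adrm1 and genes with roles in proteasome assembly, regulation and substrate delivery. All 20 passed the count filter. In competent vs. non-competent oocytes 6 of the 20 (30%) rose, against 14.2% of all genes tested, and none fell: Akirin2, which brings proteasomes into the nucleus, Ddi2, the protease that activates Nfe2l1, the PI31 partner Fbxo7, the small lid subunit Sem1, the shuttle factor Ubqln1 and the deubiquitinase Uchl5. Akirin2 had 464.5 CPM in competent and 342 CPM in non-competent oocytes, with a log2 fold change of 0.44 ± 0.061 (SE; adjusted p = 0.000165). In PND 16 large vs. PND 16 small, Akirin2 and Sem1 rose (10% of the 20, against 4.98% of all genes), and Sem1 passed 1.5-fold (log2 fold change 0.60 ± 0.17, SE, adjusted p = 0.0331). At PND 40 vs. PND 13, 9 (45%) rose, against 16.3% of all genes, and none fell. Ubqln1 changed the most of the 20, from 474 to 704 CPM (0.57 ± 0.069, SE, adjusted p = 7.48e-05). Midn rose in PND 40 vs. PND 16 large (0.35 ± 0.076, SE, adjusted p = 0.0147), and Rad23b rose in PND 16 small vs. PND 13 (0.31 ± 0.062, SE, adjusted p = 0.0362). Nfe2l1 itself was at 261 to 401 CPM in the 12 pools and passed no test in these comparisons.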

How the data were processed

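RNA-Seq counts of 12 pools were analysed. The authors deposited raw counts per gene without normalization, and log2 values of the same counts divided by a size factor, plus 1. Submitters' notes name STAR, HTSeq, DESeq2 and the build mm10. The strand setting of the counting is not given in the sources used here. Groups and replicate numbers came from the sample labels.

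Counts were tested with edgeR 4.0.16 in R 4.3.3 (TMM factors of 0.954 to 1.07, filterByExpr with a minimum count of 10, robust quasi-likelihood test), with 1 model of 4 cohorts for the 4 pairwise comparisons and 1 model of 2 groups for competence. The p-values were adjusted by Benjamini-Hochberg over the 13943 genes tested. Genes were called at an adjusted p up to 0.05 where the change also reached 1.5-fold, and "rose" and "fell" mean the adjusted p alone. Standard errors are the absolute log2 fold change over the square root of the F statistic.

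Gene positions, exon lengths and shared windows came from GENCODE M21, and promoters from RefSeq. Alternatives used DESeq2 1.42.0 and limma 3.58.1. The edgeR step was tested on simulated data. Limits for 0 counts cover counting error only. The intervals of the fold changes were built from the standard errors of the quasi-likelihood test, so they also include the spread between pools. Same-numbered pools did not deviate together (correlations of -0.44 to 0.068), so numbers were not taken to pair pools. The rule for members uses symbols alone, but the rule and the lists were set with earlier results of these data known. Named with values were all called genes, the largest change of the core and of the cap in each comparison, and Psmb5, Psmb8, Psmb9, Psmb10, Psmb11, Psma8, Psme4, Psmf1 and Psmc3ip by role. Psma7, Psmb7, Psmc5 and Psme1 and the other risers were named after their values were seen.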

Additional observations from a re-analysis of the deposited data

Results flagged for a closer look

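Dixon's test for a pool far from the other 5 of its competence group was applied to 90 groups of 6 pools (45 genes, 2 groups). In independent groups from a single population chance would flag about 1 in 20, which is 4.5 of 90, and 8 were flagged. Each group joins 2 cohorts and the genes share the same pools, so this rate may not hold here. The gap to the nearest pool, as a share of the range of the group, was 0.715 for Psma2 in PND 40 replicate 3 (84.9 CPM, next 96.9 CPM) and 0.646 for Psma5 in PND 40 replicate 1 (12.6 CPM, next 10.8 CPM). It was 0.637 for Psmd10 in PND 40 replicate 1 (44.2 CPM, next 38.4 CPM) and 0.644 for Psmd14 in PND 16 small replicate 2 (23.9 CPM, next 28.9 CPM). For Psmd3 the share was 0.720 in PND 16 large replicate 2 (120 CPM, next 116 CPM) and 0.680 in PND 16 small replicate 2 (113 CPM, next 99.1 CPM). Psmd4 had a share of 0.630 in PND 16 large replicate 3 (135 CPM, next 140.0 CPM), and Psmd6 had 0.772 in PND 13 replicate 2 (76.2 CPM, next 63.3 CPM).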

How the results depend on the processing

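Fits were repeated for 49 fold changes: those that passed the adjusted p in the main fit and, for competence, also some genes named by role. Their direction was kept in every fit. Most were chosen because they passed the test, so a kept direction was likely beforehand. Other fold changes of named genes, such as that of Psmb5 for PND 40 vs. PND 13, are not among the 49. Over 416 fits with another setting, 372 values kept their side of the threshold and 44 lost it, and over 438 fits without 1 pool, 350 kept it, 87 lost it and 1 gained it. Psmd13 kept its call throughout (-1.14 to -0.92 for competence and -1.65 to -1.37 for PND 40 vs. PND 13 when 1 pool was left out). For competence, the 2 called genes became 1 (Psmd13) with no filter on low counts, 1 with the replicate block and 1 without the 3 pools with most granulosa RNA, and 20 without the fold criterion; the 20 genes at the adjusted p became 10 without those 3 pools. For PND 16 large vs. small, the 1 called gene became 2 with total counts only, 2 with no filter and 8 without the fold criterion, and the 8 at the adjusted p became 4 in a fit of only those pools. For PND 40 vs. PND 16 large, 0 at the adjusted p became 1 with DESeq2 and 5 in a fit of only those pools. For PND 40 vs. PND 13, the 2 called became 3 (Psmb5 added) with RLE factors, with total counts only and with limma, 4 with DESeq2, 4 in a fit of only those pools, 1 with no filter, 1 with the replicate block and 17 without the fold criterion, and the 17 at the adjusted p became 11 with no filter; with total counts only they were 9 higher and 3 lower. Leaving out 1 pool gave 1 to 3 called genes and 16 to 21 at the adjusted p for competence, 1 to 3 and 3 to 12 for PND 16 large vs. small, 0 and 0 for PND 40 vs. PND 16 large, 0 to 1 and 0 to 3 for PND 16 small vs. PND 13, and 1 to 2 and 7 to 13 for PND 40 vs. PND 13. With total counts only, the summed 20S core at PND 13 was 638 CPM (609 CPM with TMM), the summed 19S cap in PND 16 large was 1428 CPM (1457 CPM), and the median of all genes moved from -0.03 to -0.12 in PND 16 small vs. PND 13. The replicate block gave 18, 8, 0, 0 and 15 genes at the adjusted p for competence and for the 4 pairwise comparisons in the order just given. The fits with the granulosa covariate and without the granulosa-rich pools were chosen after seeing the data. Apart from the fits with other scalings, the share of all genes passing was not computed for the alternatives, so their counts have no background. The cause of these changes was not tested. Few counts limit Psmg2, Psme1 and the untested genes.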
